A study of Homo sapiens with 4 samples.

Results

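The 10 genes described here encode enzymes that make serine, one-carbon units and asparagine: PHGDH, PSAT1, PSPH, SHMT2, MTHFD2, ALDH1L2, ASNS, PCK2, CBS and CTH. They were found by symbol in the annotation of the Affymetrix U133 Plus 2.0 array, taking every probe set that names only that gene. All 10 genes were present, out of 19777 with such a probe set, and they were read by 22 of 41091 such probe sets. RNA came from MCF10A, a human mammary epithelial cell line that does not form tumours, grown in DFCI-1 medium and collected during normal growth. In the cells of the arrays labelled double knockdown (n = 2), short hairpin RNAs were directed at Cbl and Cbl-b, ubiquitin ligases known to send active receptor tyrosine kinases to breakdown. The cells of the control arrays (n = 2) expressed a control hairpin. The question of the comparison was which transcripts differ when these ligases are depleted. Whether the 2 arrays of a group stem from different cultures is not stated, and a p-value here reflects the spread between arrays alone, which can be technical.

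Serine is made from the glycolytic intermediate 3-phosphoglycerate by PHGDH, PSAT1 and PSPH in turn. In mitochondria SHMT2 passes a carbon of serine to folate, and MTHFD2 and ALDH1L2 carry that unit on to formate or release it as carbon dioxide, which supplies nucleotide synthesis and redox balance. ASNS makes asparagine from aspartate and glutamine, PCK2 makes phosphoenolpyruvate in mitochondria, and CBS and CTH use serine to turn homocysteine into cysteine. Many of these genes are known targets of ATF4, the transcription factor that the integrated stress response induces when amino acids run short or proteins misfold in the endoplasmic reticulum.

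The labels were checked on the targeted transcripts. CBL had intensities of 31.1 and 29.0 on the arrays labelled double knockdown, against 125.9 and 84.4 on the control arrays, while CBLB had 94.8 and 99.5 against 64.3 and 70.05. These are the values of the brightest probe set of each gene, with log2 changes of -1.37 and 0.45. With the mean of all probe sets of each gene, dim ones included, the log2 changes were smaller, at -0.41 for CBL and 0.28 for CBLB. The CBLB transcript went against the label, so the arrays are called labelled double knockdown throughout. Of 10 mammary epithelial markers, 8 were measured, all of them above the brightness minimum. By the gene test described in the next paragraph, 3 were called higher and 2 lower. CDH1, ITGA6 and ITGB4 were not called, at log2 changes of 0.01, -0.19 and -0.37. KRT8, KRT18 and EPCAM, which mark luminal cells and were named after their values were seen, had log2 changes of 0.65, 0.53 and 0.40. Each of these 3 was read by a probe set of a type that may read more than 1 transcript. KRT14, a basal keratin, had 4710 and 4266 on the arrays labelled double knockdown, against 13558 and 14078 on the control arrays (log2 change -1.62). KRT5, its partner, had 4824 and 4872 against 8245 and 7866 (log2 change -0.73). The sum over the 8 was 18881 and 18465 on the arrays labelled double knockdown, against 29898 and 29527 on the control arrays, and the falls of KRT14 and KRT5 together exceed that gap. Leaving out double knockdown replicate 2 ended the calls of KRT8 (adjusted p = 0.0532) and KRT18 (0.0998), while that of EPCAM ended with a pseudocount of 1 (0.0542) and whichever array was left out (0.0501 to 0.22). The part of these markers in the results was not tested. Of the leukocyte markers 2 of 3 measured were above the minimum and of the fibroblast and endothelial markers 2 of 6, none of them called, and PTPRC, CDH5 and COL3A1 lay below it.

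Among the 10 enzyme genes, ASNS fell 1.57-fold and MTHFD2 rose 1.42-fold on the arrays labelled double knockdown, and the other 8 did not pass the test. The test was limma on log2(intensity + 16), with 1 probe set per gene, the brightest, and p-values adjusted over 12951 genes with a mean of at least 14.66. A gene was called at an adjusted p under 0.05, and folds are of intensity + 16. Of all genes tested, 16% were called, 9.41% higher and 6.6% lower, and the 2 of 10 enzyme genes (20%) are near that share, so the count is no result about the enzymes. The median log2 change of the 10 was -0.07, against -0.01 over all genes tested. Their log2 changes ran from -0.65 for ASNS to 0.51 for MTHFD2. The 2 groups did not overlap for 7 of the 10, with 3 higher and 4 lower, against 57.5% of all genes tested, with 28.1% higher and 29.3% lower. In RNA of whole cultures, a change in the share of cells that express a gene and a change in RNA per cell cannot be told apart.

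**Figure D1:**
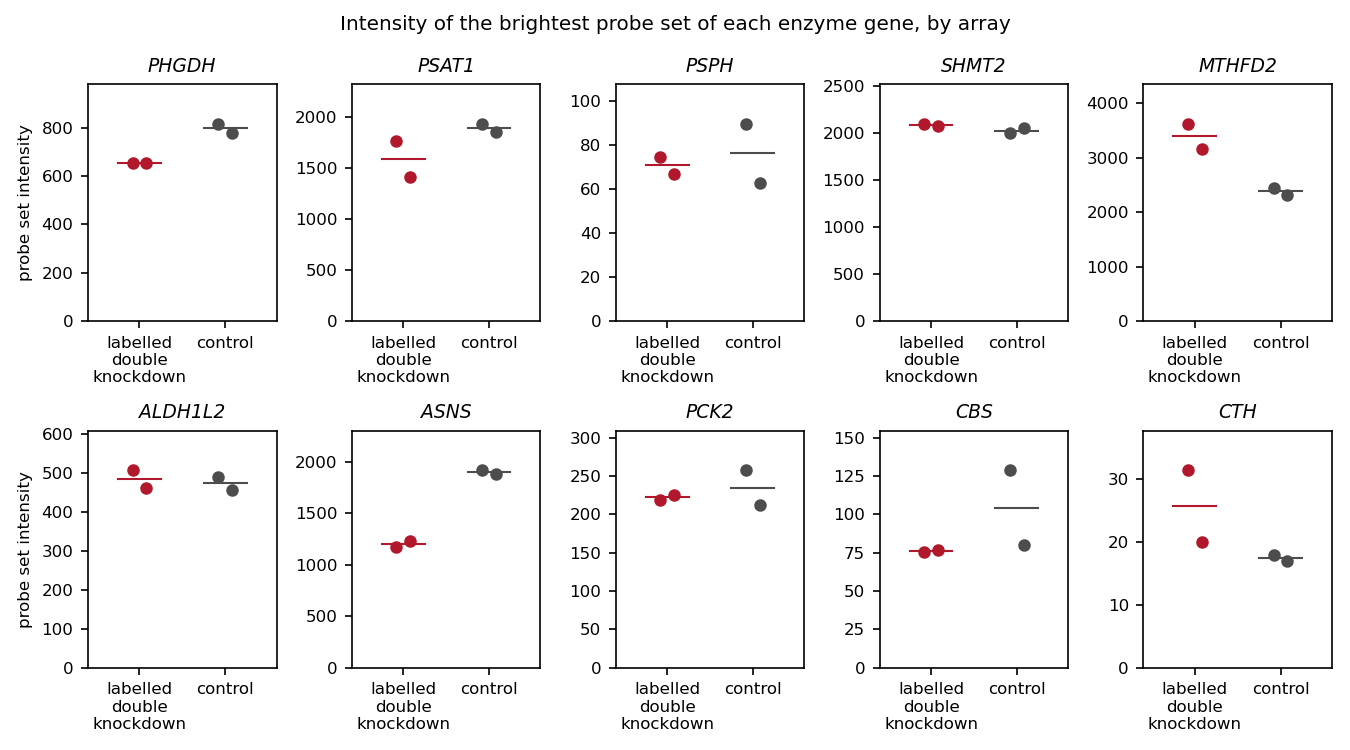
Intensity of the brightest probe set of each enzyme gene on the linear scale (y axis from 0, a separate scale per panel), with 1 point per array and the mean of each group as a bar, arrays labelled double knockdown left and control right. The groups stand far apart for ASNS (1178 and 1227 against 1918 and 1886) and MTHFD2 (3619 and 3167 against 2441 and 2323), and overlap for PSPH, ALDH1L2 and PCK2.

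None of the 3 serine synthesis genes passed the gene test. PHGDH, the dehydrogenase of the first step, had intensities of 652 and 654 on the arrays labelled double knockdown, against 815 and 779 on the control arrays (probe set 201397_at). The groups were apart, with a log2 change of -0.28 ± 0.08 SE (95% interval -0.48 to -0.08), but the adjusted p by limma was 0.061, above the threshold. It was called with a pseudocount of 64 (adjusted p = 0.0289) and where genes were given by the mean of their probe sets (0.0288). PHGDH has 1 probe set, so averaging left its log2 change at -0.28, and only the SE differed (0.06).

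PSAT1, the aminotransferase of the second step, was read by 2 probe sets, both of a type that may read more than 1 transcript. The brighter one, 223062_s_at, had 1769 and 1411 on the arrays labelled double knockdown, against 1932 and 1857 on the control arrays. Both control arrays were above both others, yet the arrays labelled double knockdown differed widely among themselves, and the log2 change of -0.26 ± 0.12 SE had an adjusted p by limma of 0.183. It was -0.42 without double knockdown replicate 1 and -0.097 without replicate 2. The second, 220892_s_at, had 691 and 702, against 858 and 880 on the control arrays. In the same test over all 22904 probe sets of 1 gene that reached the brightness minimum it fell 1.24-fold (log2 change -0.31 ± 0.08 SE, adjusted p by limma 0.0478). This call was lost whichever array was left out (0.0836 without control replicate 1, 0.0943 without control replicate 2, 0.263 without double knockdown replicate 1 and 0.27 without double knockdown replicate 2), at log2 changes of -0.30 to -0.33. It was also lost with cyclic loess (0.0607) and with a pseudocount of 1 (0.102). With the mean of both probe sets, PSAT1 was called lower (log2 change -0.29, adjusted p = 0.0448).

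PSPH, the phosphatase of the last step, had 74.8 and 66.8 on the arrays labelled double knockdown, against 89.7 and 63.0 on the control arrays (205194_at). The control arrays enclosed the others, and the log2 change of -0.08 had a 95% interval of -0.40 to 0.25. The second probe set, 205048_s_at, also overlapped, at 25.1 and 21.4 against 24.3 and 22.0, and the third, 244819_x_at, lay below the brightness minimum with a mean of 7.95. A change of PSPH was thus not resolved in either direction.

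The mitochondrial one-carbon genes did not move together. MTHFD2, the dehydrogenase and cyclohydrolase that oxidises the folate-bound carbon, had 3619 and 3167 on the arrays labelled double knockdown, against 2441 and 2323 on the control arrays (201761_at). Both arrays labelled double knockdown were above both control arrays, with means of 3393 ± 319 and 2382 ± 83.2 (SD, n = 2 each). The rise was 1.42-fold (log2 change 0.51 ± 0.10 SE, 95% interval 0.28 to 0.73, adjusted p by limma 0.0137), and 95.2% of all genes tested had a lower log2 change. The call was lost without double knockdown replicate 1 (log2 change 0.41) and held without replicate 2 (log2 change 0.60). Leaving out either of these leaves 1 array in the group, and most calls over all genes were then lost. Such a loss is thus not particular to MTHFD2. In the test over all probe sets (0.0168) the call was lost without a brightness filter (0.0542) and without either double knockdown array. The second probe set, 234976_x_at, was much dimmer, with 39.1 and 44.3 against 32.5 and 37.4. Its groups were apart in the same direction, but it was not called (log2 change 0.18 ± 0.10 SE, adjusted p by limma 0.272). Averaged with it, the log2 change of MTHFD2 was 0.34, and the call held (0.0153).

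SHMT2, which splits serine into glycine and a folate-bound carbon, was nearly level. Its brightest probe set, 214096_s_at, had 2100 and 2076 on the arrays labelled double knockdown, against 1998 and 2053 on the control arrays (log2 change 0.04 ± 0.08 SE, 95% interval -0.15 to 0.24). The groups did not overlap there but differed by less than the error of the change. The other pair pointed the other way, with 988 and 992 against 1067 and 1091 for 214437_s_at (log2 change -0.12) and 364 and 369 against 372 and 402 for 214095_at (log2 change -0.08), again without overlap of the groups. None of the 3 was called, so the sign depended on the probe set: with their mean the log2 change was -0.052, and with 214095_at, the one not of a type that may read more than 1 transcript, -0.076.

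ALDH1L2, which releases the one-carbon unit as carbon dioxide and so regenerates folate, had 506 and 461 on the arrays labelled double knockdown, against 490 and 455 on the control arrays (231202_at, log2 change 0.03, 95% interval -0.18 to 0.25). A dimmer probe set, 1556841_a_at, had 35.3 and 41.0, against 21.0 and 28.6 on the control arrays. There the groups were apart, with a log2 change of 0.41 ± 0.11 SE and an adjusted p by limma of 0.053. It was called with array centring (0.0495), the stricter brightness filter (0.0476) and a trend in the prior (0.0456). The same held without probe sets whose names end in _s_at or _x_at (0.0429). That setting keeps names ending in _a_at, so it does not show that this one reads a single transcript. It was not called with quantile normalization (0.0638), cyclic loess (0.0545), a pseudocount of 1 (0.0662) or 64 (0.104), or without a brightness filter (0.142). Its log2 change was 0.28 without control replicate 1 and 0.55 without control replicate 2. Without double knockdown replicates 1 and 2 it was 0.49 and 0.34. The third, 1559393_at, overlapped at 27.0 and 18.3 against 18.6 and 19.9. The 2 brighter probe sets thus gave different sizes, and which transcripts each reads was not analysed here.

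**Figure D2:**
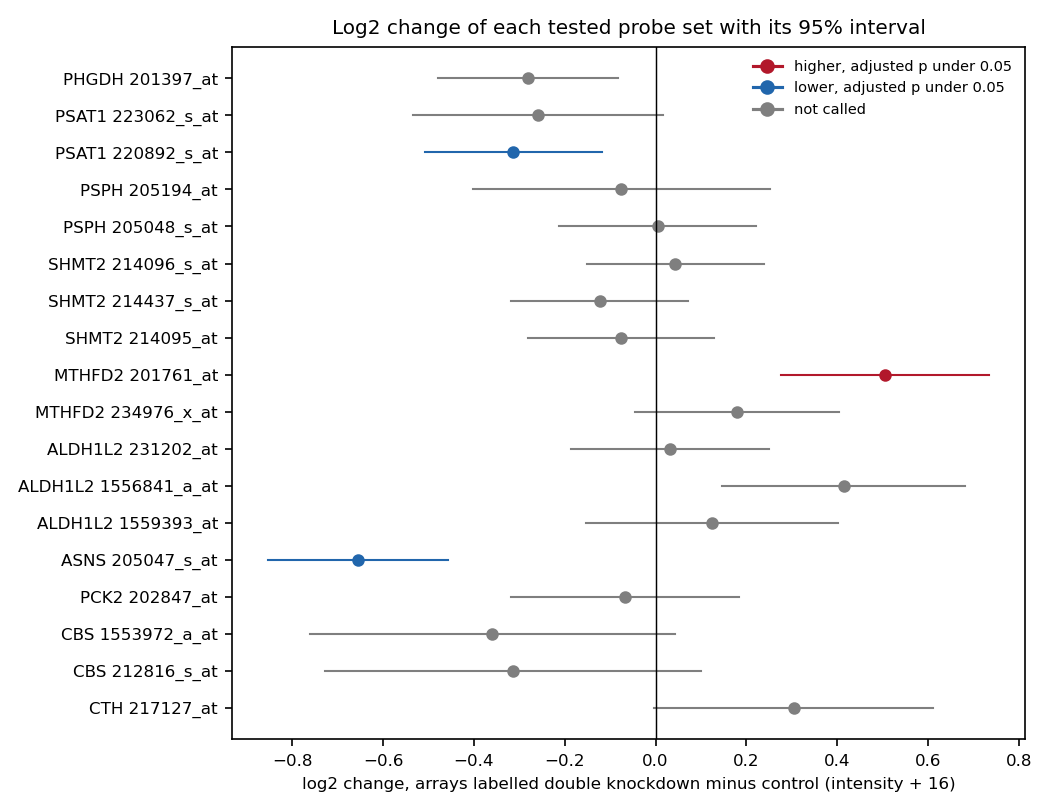
Log2 change (x axis, arrays labelled double knockdown minus control, on log2(intensity + 16)) of the 18 enzyme probe sets that reached the brightness minimum, each point with its 95% interval, named by gene and probe set and ordered by pathway step. ASNS 205047_s_at at -0.65 and PSAT1 220892_s_at at -0.31 are called lower, MTHFD2 201761_at at 0.51 is called higher, and the other 15 are not called.

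Of the 22 probe sets, 18 reached the brightness minimum. Among these 1 was called higher and 2 lower, 16.7% in all, against 13.7% of all probe sets tested (7.97% higher and 5.71% lower). By sign, 10 of the 18 had a log2 change below 0 and 8 above 0. The 4 dim probe sets, 1 each of PSPH, ASNS, CBS and CTH, were not tested.

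ASNS had the largest change of the 10 genes. Its probe set 205047_s_at had 1178 and 1227 on the arrays labelled double knockdown, against 1918 and 1886 on the control arrays. The arrays of each group lay close together and the groups far apart, with means of 1202 ± 34.6 and 1902 ± 22.7 (SD, n = 2 each). The fall was 1.57-fold (log2 change -0.65 ± 0.08 SE, 95% interval -0.85 to -0.46, adjusted p by limma 0.00277), and 1.02% of all genes tested had a lower log2 change. The call held in the gene test without each array in turn, with adjusted p up to 0.033. In the test over all probe sets (0.00381) it was lost without double knockdown replicate 1 (0.0883) or replicate 2 (0.0925). The fall rests on this probe set, of a type that may read more than 1 transcript. The other, 241082_at, had 5.0 and 3.85 against 4.62 and 3.81, below the brightness minimum on each array. Averaged with it, the log2 change was -0.32, and the call held (adjusted p = 0.0184).

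The promoters of ASNS and MTHFD2 are shown because these 2 genes moved in opposite directions, although both are known ATF4 targets. The sequences are the 250 bases before the transcript start in RefSeq, build GRCh38.p14. ASNS lies on the minus strand (chr7:97872409-97872658, for the upstream one of 2 starts) and MTHFD2 on the plus strand (chr2:74198365-74198614). Capitals mark matches to TGATGNAA, the core that ATF4 binds together with a C/EBP partner.
ASNS: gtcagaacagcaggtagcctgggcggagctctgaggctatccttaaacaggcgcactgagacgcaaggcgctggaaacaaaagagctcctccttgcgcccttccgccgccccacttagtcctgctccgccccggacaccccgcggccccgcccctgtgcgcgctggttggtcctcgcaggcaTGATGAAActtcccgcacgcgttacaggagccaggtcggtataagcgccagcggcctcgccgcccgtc
MTHFD2: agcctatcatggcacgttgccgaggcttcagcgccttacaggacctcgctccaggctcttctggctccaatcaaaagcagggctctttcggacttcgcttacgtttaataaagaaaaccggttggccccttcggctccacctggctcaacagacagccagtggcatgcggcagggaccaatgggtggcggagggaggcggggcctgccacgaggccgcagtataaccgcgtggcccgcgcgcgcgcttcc
The motif was searched on both strands from 250 bases before to 50 after the start. Of the 10 genes, 7 had such a window and they had 10 windows in all. A match stood in 1 of the 10, that of the upstream ASNS start, as TGATGAAA at positions -68 to -61 counted from the start. A match stood in 3.62% of all 35116 windows listed for human genes. A match is a description of these letters and says nothing about binding in these cells.

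PCK2, the mitochondrial phosphoenolpyruvate carboxykinase, was unresolved. It had 219 and 226 on the arrays labelled double knockdown, against 257 and 212 on the control arrays (202847_at). The control arrays enclosed the others, with a log2 change of -0.07 and a 95% interval of -0.32 to 0.18.

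The transsulfuration genes each turned on 1 array. CBS, which joins serine and homocysteine, had 75.5 and 76.5 on the arrays labelled double knockdown, against 128.8 and 80.2 on the control arrays (1553972_a_at). Its second probe set, 212816_s_at, gave the same picture, with 74.1 and 78.7 against 125.8 and 76.9. Control replicate 1 stood high in both, and the log2 changes of -0.36 ± 0.17 SE and -0.31 ± 0.18 SE were not called (adjusted p by limma 0.204 over genes and 0.297 over probe sets). Without control replicate 2, which left control replicate 1 alone, CBS was called lower (log2 change -0.65, adjusted p = 0.00917), and so was the second probe set (0.0148). Without control replicate 1 its log2 change was -0.06 (adjusted p = 0.721). By the brightest probe set, control replicate 1 was also above control replicate 2 for every other enzyme gene except SHMT2. The third probe set, 240517_at, lay below the brightness minimum, with 11.0 and 11.0 against 11.7 and 12.4.

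CTH, which releases cysteine from the product of CBS, was dim. Its probe set 217127_at had 31.4 and 20.0 on the arrays labelled double knockdown, against 17.9 and 17.0 on the control arrays. Both arrays labelled double knockdown were higher, one by far more than the other, and the log2 change of 0.30 ± 0.13 SE was not called (adjusted p by limma 0.163). Without double knockdown replicate 1 it was 0.11. The other probe set, 206085_s_at, had 9.87 and 9.49 against 9.30 and 8.57, below the minimum. At this signal a change of CTH could not be resolved.

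**Figure D3:**
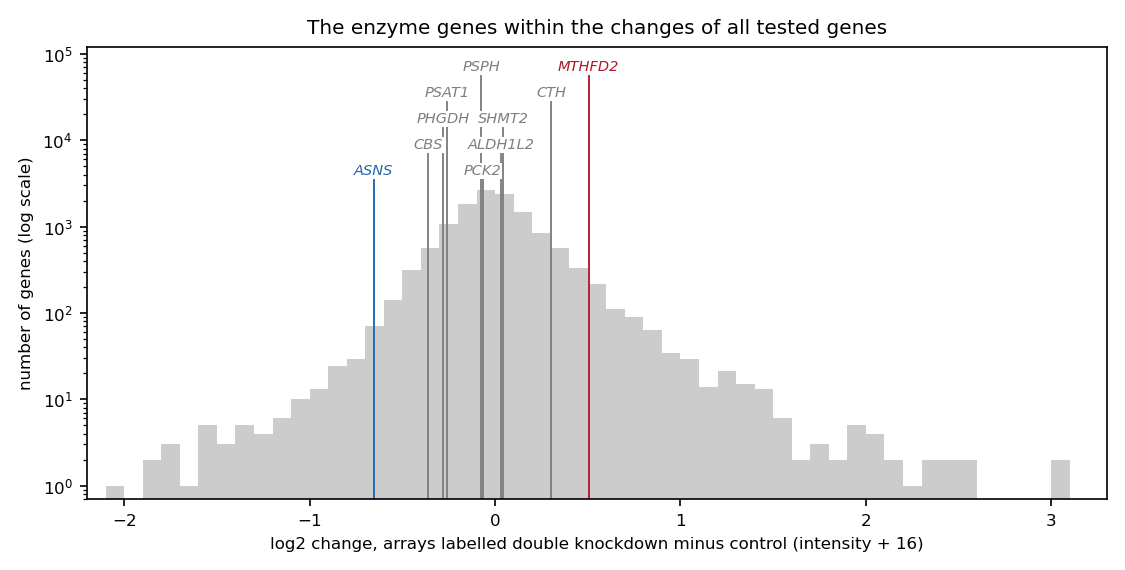
Histogram of the log2 changes of all 12951 genes tested (x axis, arrays labelled double knockdown minus control; y axis, number of genes on a log scale), with a line for each enzyme gene, red if called higher, blue if called lower and grey otherwise. ASNS stands in the lower tail and MTHFD2 in the upper one, and the other 8 lie between -0.36 and 0.30.

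For each called gene, the nearest patterns were taken as the 2 other tested genes with the smallest Euclidean distance between log2 values centred on each gene's mean over the 4 arrays. For ASNS they were CRYAB (distance 0.04, log2 change -0.64) and KLK10 (distance 0.05, log2 change -0.67). For MTHFD2 they were CCNYL1 (distance 0.02, log2 change 0.50) and MAP9 (distance 0.04, log2 change 0.51). With the mean of their probe sets, KLK10 had a log2 change of -0.35 and MAP9 of 0.14, the call of MAP9 being lost (0.167), and MAP9 had 0.32 with a pseudocount of 64. With 4 arrays, such likeness mostly restates the change between the groups.

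Linked genes were counted in lists around the enzymes, each count to be read against the 9.41% of genes called higher and 6.6% called lower. Where a call is said to be lost without a double knockdown array, most calls over all genes were lost there too. Serine and glycine enzymes other than the 10 had 2 of 8 called higher and none lower. GLDC, the glycine decarboxylase, rose 2.86-fold, with 111 and 113 on the arrays labelled double knockdown against 27.7 and 29.8 on the control arrays (log2 change 1.52 ± 0.08 SE, adjusted p by limma 6.1e-05, and log2 change 0.93 with a pseudocount of 64). GCSH, which carries the rest of the glycine, had a log2 change of 0.31 (adjusted p by limma 0.0465). The call of GCSH was lost whichever array was left out (0.117 without control replicate 1, 0.0506 without control replicate 2, 0.229 and 0.255 without double knockdown replicates 1 and 2). AMT and DLD, the other components of the glycine cleavage system, named after their values were seen, were not called, at log2 changes of 0.05 (adjusted p by limma 0.793) and -0.13 (0.365).

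Of 11 other folate cycle genes, 1 was called higher and 2 lower. TYMS, the thymidylate synthase, had a log2 change of -0.50 and GGH, which trims folate tails, of 0.46. The call of TYMS was lost without double knockdown replicate 1 (0.0876) or 2 (0.0687) and with the mean of its probe sets (0.0793, log2 change -0.23), and that of GGH without double knockdown replicate 1 (0.122) or 2 (0.0721). Of 15 genes of the methionine cycle, transsulfuration and glutathione synthesis, 1 was called, GCLM, the modifier subunit of the first glutathione enzyme. It rose 1.79-fold (log2 change 0.84 ± 0.10 SE, adjusted p by limma 0.00197), but its log2 change was 0.59 with the mean of its probe sets.

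Of 15 enzymes of aspartate, glutamate and proline, 1 was called higher and 3 lower. GLUL, which makes glutamine, a substrate of ASNS, fell 1.62-fold (log2 change -0.70), and its call was lost without double knockdown replicate 2 (0.0556). The log2 change of GLUL was -1.0 with its probe sets averaged and -1.23 (adjusted p = 5.72e-05) when probe sets of several transcripts were left out. Of 9 genes around 3-phosphoglycerate and phosphoenolpyruvate, most of them glycolytic, 1 was called higher and 3 lower. The 1 called higher was PC, the pyruvate carboxylase, which is not a glycolytic enzyme (log2 change 0.53). PC was named after its values were seen. PKM, the pyruvate kinase, fell 1.66-fold (log2 change -0.73), with its call lost without double knockdown replicate 2 (0.055) and a log2 change of -0.34 with the mean of its probe sets. Of 12 purine synthesis genes, none was called higher and 1 lower, PRPS1 (log2 change -0.53), whose call was lost without a brightness filter (0.0752) and without double knockdown replicate 1 (0.121) or 2 (0.116).

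Among carriers and regulators more genes were called higher than lower. Of 10 carriers of serine, asparagine and cystine, 2 were called higher and none lower. SLC7A11, which imports cystine, rose 2.46-fold (log2 change 1.30, but 0.95 with the mean of its probe sets). Its partner SLC3A2 rose 1.45-fold (log2 change 0.54). The call of SLC3A2 was lost without double knockdown replicate 1 (0.0599) or 2 (0.0598). Of 18 eIF2 kinases and ATF4 pathway regulators, 6 were called higher and 1 lower. DDIT3, which encodes CHOP, rose 8.14-fold and EIF2AK3, the kinase PERK, 2.28-fold (log2 change 1.19, but 0.58 with the mean of its probe sets). ATF4 itself, named after its values were seen, had 7376 and 7786 on the arrays labelled double knockdown, against 5667 and 5891 on the control arrays (log2 change 0.39 ± 0.09 SE, adjusted p by limma 0.022). Its call was lost with a pseudocount of 1 (0.053) and without control replicate 1 (0.0599), as well as without double knockdown replicate 1 (0.108) or 2 (0.191). Of 14 other ATF4 targets, 7 were called higher and none lower, with a median log2 change of 0.25. This list, like the others, was chosen with earlier results of these data known, so its share is no test of ATF4 targets. GDF15, a stress cytokine, rose 3.79-fold (log2 change 1.92, but 0.63 with the mean of its probe sets) and CHAC1, which degrades glutathione, 2.07-fold. ASNS, an ATF4 target as well, fell beside them.

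**Figure D4:**
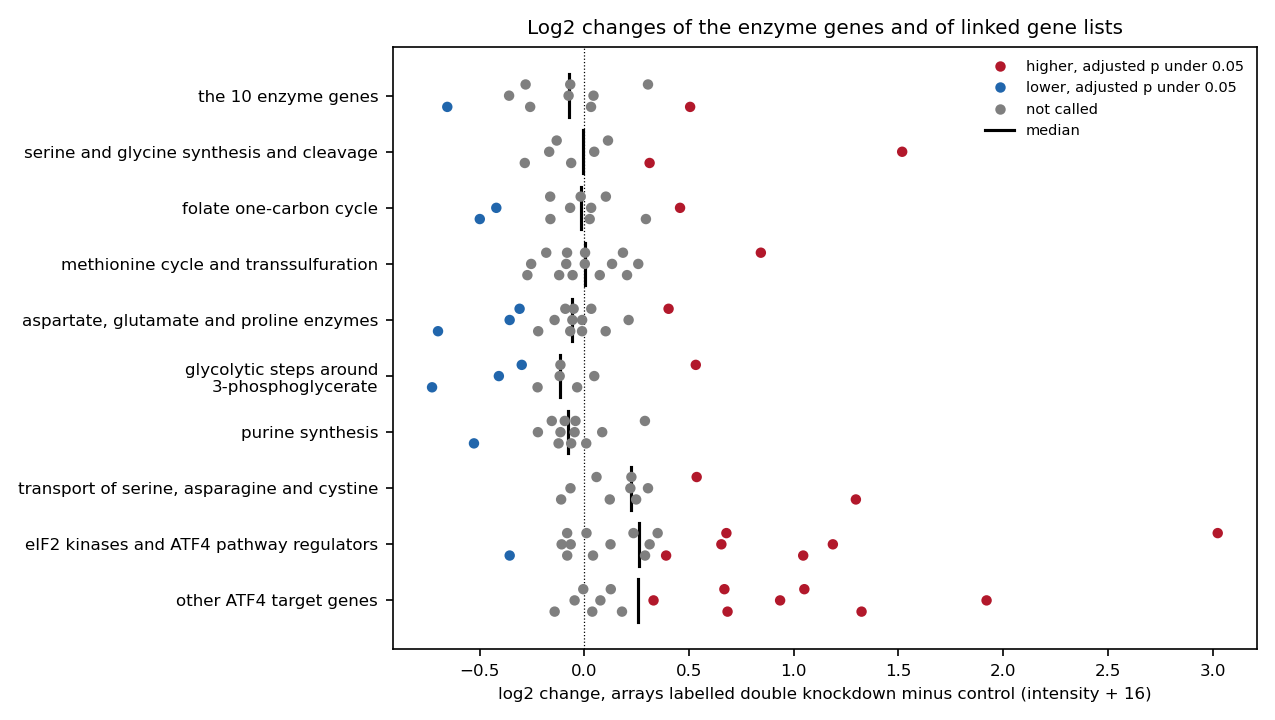
Log2 change (x axis, arrays labelled double knockdown minus control) of each tested gene, 1 point per gene, for the 10 enzyme genes and 9 lists of linked genes, with the median of each list as a black bar, red points called higher, blue called lower and grey not called. The medians are -0.07 for the 10 enzyme genes and 0.25 for the other ATF4 targets, where none of the 14 points is blue. Members and lists were chosen with earlier results of these data known.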

How the data were processed

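The authors deposited a linear intensity for every probe set on every array (the scale was judged from the range of values). The sources used here do not give how these intensities were summarised or normalized. Array medians lay between 14.5 and 14.7, and the values were used as they stand. Of 54675 probe sets, 62 controls were left out, and 41091 named 1 gene in the platform annotation, 41037 of which took a current symbol from RefSeq (GRCh38.p14) by gene identifier. A probe set that names PHGDH and other genes was not tested.

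Differences were tested by limma 3.58.1 (R 4.3.3, lmFit and eBayes, two-sided, no covariate) over all 4 arrays on log2(intensity + 16), which understates the change of dim genes. Each gene was represented by its brightest probe set, and was tested where the mean over the arrays was at least 14.66, the median over probe sets. Adjusted p-values are Benjamini-Hochberg values over all genes, or over all probe sets where stated, and intervals are moderated 95% intervals. The number of arrays limits the precision. The procedure was run on simulated data first.

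The text names the 10 enzymes, the CBL genes, genes of each list in order of p, and the 2 nearest patterns of each called enzyme. Members and lists were chosen with earlier results of these data known. The alternatives changed the normalization (centring of arrays, quantile, cyclic loess), the pseudocount, the brightness filter, the choice of probe sets (averaged, or without types that match several transcripts), the prior, the arrays included and the replicate block. Types that match several transcripts were taken by name, as those ending in _s_at or _x_at, so probe sets ending in _a_at stayed in.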

Additional observations from a re-analysis of the deposited data

How the results depend on the processing

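ASNS kept its direction and call under each of the 14 alternatives that could test it, at log2 changes of -0.68 to -0.32. MTHFD2 kept both under 14 of 15, at 0.34 to 0.60. Enzyme genes called lower numbered 1 in the main test and 2 with a pseudocount of 64 (PHGDH added). They numbered 3 with probe sets averaged (PSAT1 added, and PHGDH, whose 1 probe set left its log2 change the same). Without probe sets of several transcripts they numbered 0, as ASNS could not be tested there. Enzyme genes called higher numbered 0 to 1 and enzyme probe sets called 0 to 5 when an array was left out. Over all genes, leaving out an array gave 378 to 1120 called higher and 158 to 875 lower, the fewest without a double knockdown array. Uncalled values that changed sign when an array was left out ran from -0.29 to 0.13 for PSPH, -0.20 to 0.063 for PCK2, -0.033 to 0.097 for ALDH1L2, -0.039 to 0.29 for its probe set 1559393_at and -0.064 to 0.073 for the PSPH probe set 205048_s_at, which also turned to -0.0081 with quantile normalization. SHMT2 turned to -0.052 with probe sets averaged and -0.076 without probe sets of several transcripts. TPI1, a glycolytic gene called lower at -0.41, turned to 0.15 (adjusted p = 0.47) under the latter setting. The cause was not tested. The labels give both groups the numbers 1 and 2 but no shared batch, and the deviations of same-numbered arrays correlated at r = 0.24 over genes. With the replicate block, 1423 genes were called higher and 1081 lower, 1 enzyme each way. The PSAT1 probe set 220892_s_at then lost its call (0.0509) and the ALDH1L2 probe set 1556841_a_at gained one (0.029).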

Other observations

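A further probe set, 212995_x_at, names PHGDH together with MZT2A and MZT2B and is no member by the rule. It had intensities of 2618 and 2611 on the arrays labelled double knockdown, against 2490 and 2743 on the control arrays, so the control arrays enclosed the others. The probe set of PHGDH alone was lower on both arrays labelled double knockdown. Which of the 3 genes gives this signal cannot be told from the values.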
